A study of Danio rerio with 8 samples.

Results

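The comparison is between the spinal cord of uninjured mstnb mutant zebrafish and that of uninjured wild-type siblings, gene by gene. A gene was a member where the mutant or the wild-type uninjured group averaged 1 CPM or more (CPM are the reads of a gene scaled to a common library size), which gave 18130 of the 25309 entries measured. Of these, 16257 reached that mean in both genotypes, 990 in the mutants alone and 883 in wild type alone. A gene that entered through 1 genotype alone had to be higher in it, so counts over all members include such genes by construction.

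Myostatin is a secreted ligand of the TGF-beta family. It binds activin type II receptors and acts through type I receptors and the transcription factors Smad2 and Smad3, and follistatin proteins hold it back. It is best known as a brake on skeletal muscle growth; in a healthy cord the genes that follow its loss are the baseline against which an injury response is read.

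The RNA came from adult fish of both sexes aged 3 to 9 months, with controls of similar size. Uninjured wild type and uninjured mutants had 2 libraries each, numbered 1 and 2, and the same genotypes 1 week after complete cord transection (1 wpi) had 2 each. The sources used here do not give the allele, the zygosity or the number of fish in a library, so the p-values measure the spread between libraries, which may be partly technical. The uninjured libraries held 22411820 and 24304589 reads in wild type and 33410514 and 25058706 in the mutants, against 20082743 to 33410514 over all 8 libraries. Values below are given in the order wild type 1, wild type 2, then mutant 1, mutant 2.

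The tissue carried the markers of cord, together with those of its surroundings. The synaptic gene snap25a stood at 2766 and 4762 CPM in wild type against 1533 and 3874 CPM in mutants, and the trunk-identity gene hoxb8a at 160 and 262 against 192 and 272 CPM. Defining markers of skeletal muscle (actc1b, 963 to 2750 CPM over the 4 libraries), liver (tfa, 14.8 to 311 CPM) and oocytes (zar1, 1.44 to 43.7 CPM) were present as well. Every defining marker had an entry among those measured, though some were very low, such as the epidermal krt5 at 0.0446 CPM in wild type 1. Wild type 1 was the richest in muscle, liver and oocyte transcripts. Mutant 1 had the largest share of mitochondrial reads, 32.8% against 21.5% to 23.4% in the other 3, and the lowest summed level of neuronal genes. In bulk tissue, fewer cells of a type and less RNA per cell cannot be told apart.

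Replicates of one genotype lay as far apart as libraries of different genotypes. The median absolute difference per gene on the log2(CPM + 1) scale was 0.586 between the wild-type libraries and 0.524 between the mutant ones. Across genotypes it was 0.276 between wild type 2 and mutant 2, the smallest of the 4 such pairs, and 0.502 to 0.612 in the other 3. At 1 wpi the replicates differed by 0.258 and 0.240.

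**Figure D1:**
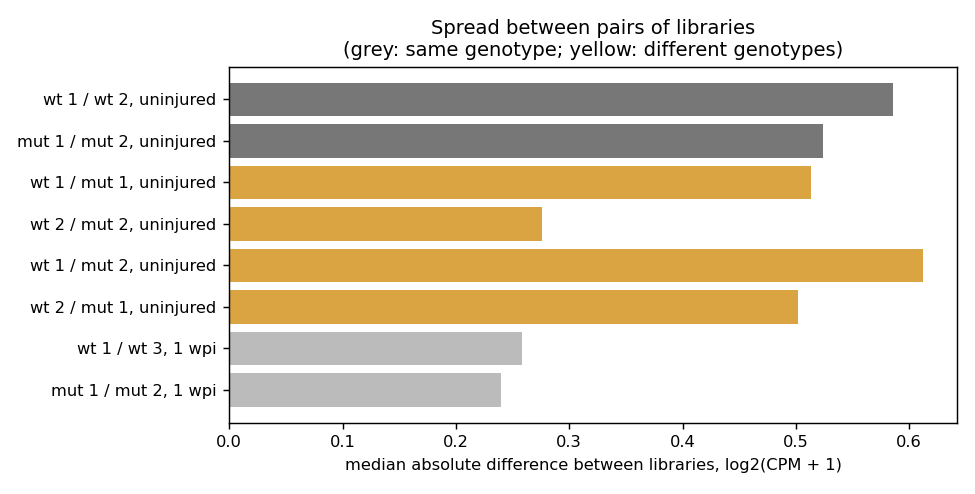
Median absolute difference between 2 libraries, on the log2(CPM + 1) scale, for pairs of one genotype (grey) and of different genotypes (yellow). The pair wild type 2 and mutant 2 (0.276) is closer than the replicates of either uninjured genotype (0.586 and 0.524).

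No gene passed the test in limma over all 8 libraries. Of 19114 genes fitted over all 8 libraries with limma on log2(CPM + 1), 0 were called higher and 0 lower in the uninjured mutants at a Benjamini-Hochberg adjusted p under 0.05 (0%), and the smallest adjusted p was 0.401. At an unadjusted p under 0.05, 234 members stood higher (1.29%) and 618 lower (3.41%). Over all 19114 fitted genes, 852 reached that limma p (4.46%). The quasi-likelihood test of edgeR on the recovered reads also called 0 genes (0%), with 1212 of 19114 at an unadjusted p under 0.05 (6.34%). In contrast, DESeq2 called 25 higher (0.133%) and 58 lower (0.309%) among 18743. Some of these lower calls were egg and yolk genes, as given below. In limma the count was 64 with the 4 uninjured libraries alone and 114 with a replicate block. That block was a single term for the uninjured libraries numbered 2, and the injured libraries were not blocked. The authors' deposited table lists an adjusted p under 0.05 for 2199 members as higher (12.1%) and 3086 as lower (17.0%); how its standard errors were obtained is not stated.

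The median difference over all members was -0.07 on the log2 scale, with quartiles of -0.35 and 0.24. It was -0.22 without wild type 1, 0.07 without wild type 2, 0.20 without mutant 1 and -0.33 without mutant 2. List medians with 1 library left out are to be read beside these. The median limma standard error (SE) was 0.42. This SE pools the replicate spread of all 4 groups, the injured ones included. Both mutant libraries lay above both wild-type libraries for 1298 members (7.16%) and below both for 2952 (16.3%). These shares are the background for every such count below, where "without overlap" means that all libraries of one genotype lay on one side of all libraries of the other. With 2 libraries a genotype an exact permutation test cannot go below p = 0.333, so a count without overlap is a description. All such counts are on CPM as deposited. With TMM scaling, which adjusts library size for composition, the median over all members was 0.01 instead of -0.07. The TMM factor was 0.684 in mutant 1, against 0.813 in wild type 1, 1.010 in wild type 2 and 1.038 in mutant 2. The counts without overlap were not repeated with TMM.

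The targeted gene was lower in the mutants. Reads of mstnb stood at 48.8 and 74.8 CPM in wild type against 10.2 and 26.4 CPM in mutants, means of 61.8 ± 18.4 and 18.3 ± 11.4 CPM (SD, n = 2). The genotypes did not overlap, and mstnb transcripts remained detectable in both mutant libraries. The difference was -1.81 ± 0.42 (log2, SE), with a limma adjusted p of 0.421 over all genes and a DESeq2 adjusted p of 0.000781. It was -1.16 without mutant 1 and -2.45 without mutant 2. At 1 wpi the levels were 45.2 and 42.2 CPM in wild type and 11.9 and 17.7 CPM in the mutants.

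The rest of the myostatin and activin pathway showed no call and no common direction. Of 27 members of the list, 3 were higher and 7 lower without overlap, mstnb included, and their median was -0.17. Among ligands, inhbb, which codes for the activin beta B subunit, stood at 19.9 and 13.7 CPM in wild type against 5.48 and 12.3 CPM in mutants (-0.92 ± 0.40, limma adjusted p = 0.982). Among receptors, the type II receptor gene acvr2bb was at 1.74 and 1.73 against 0.808 and 1.36 CPM, and the type I receptor gene tgfbr1b at 0.580 and 2.67 against 3.20 and 3.47 CPM. The signal transducers split: smad2 (24.2 and 23.0 against 15.0 and 21.7 CPM) and smad3a (13.2 and 18.5 against 9.79 and 11.7 CPM) were lower, while their paralogue smad3b (0.178 and 2.30 against 2.33 and 3.63 CPM) and smad4a (0.759 and 2.06 against 2.81 and 5.03 CPM) were higher. The inhibitors fstl3 and bambib were lower by 0.27 and 0.66 on the log2 scale. The direction thus differed between paralogues of the same step, and the pathway's members were named with their values seen.

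Genes with the largest ratio of difference to error led in both directions. On the lower side stood slc40a1, which codes for the iron exporter ferroportin, at 37.8 and 27.3 CPM in wild type and 7.57 and 9.82 CPM in the mutants (-1.78 ± 0.34, limma adjusted p = 0.401, DESeq2 adjusted p = 0.000475). The ubiquitin-like interferon-induced gene isg15 was at 10.5 and 14.8 against 2.96 and 2.63 CPM (-1.83 ± 0.34), and the cell-surface glycoprotein gene thy1 at 37.1 and 29.2 against 8.62 and 11.6 CPM (-1.63 ± 0.31). In all 3 both mutant libraries lay below both wild-type ones, and the replicates of each genotype lay close together. The Z-disc protein gene tcap was at 67.2 and 30.4 against 11.7 and 8.66 CPM (-2.06 ± 0.40). The unnamed entry CR318588.1 was at 57.9 and 86.9 against 11.6 and 12.2 CPM (-2.48 ± 0.46). Each of these 5 had a limma adjusted p of 0.401 and was called by DESeq2. The 8 largest ratios on the lower side also included the unnamed entries si:dkey-241l7.2, si:dkey-241l7.5 and zgc:171474. Their log2 differences were -3.45, -3.57 and -3.07 in uninjured cord, and 5.99, 5.42 and 3.38 at 1 wpi. Each was highest in wild type 1 among the uninjured libraries, as were the egg genes zp3a.1 and zar1 given below. Of these entries, DESeq2 called zgc:171474 alone (adjusted p = 0.0154).

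Among the genes on the higher side, some were nearly silent in wild type. The entry zgc:113314 had 1 and 0 reads in wild type and 102 and 92 in the mutants, a ratio per library total of 155 with an exact 95% interval of 27.5 to 6154. The entry si:dkey-18p12.4 had 2 and 0 reads in wild type and 199 and 190 in the mutants, a ratio of 155 (42.7 to 1288). These intervals cover counting error only, and both genes were picked by their moderated t in these same libraries. The muscle myosin heavy chain gene myha stood at 2.90 and 0.782 CPM in wild type against 25.4 and 21.3 CPM in mutants (3.20 ± 0.53, limma adjusted p = 0.401, DESeq2 adjusted p = 0.000129). The genes dipk2b (0.223 and 1.23 against 4.49 and 6.39 CPM) and swap70a (0 and 0.165 against 2.10 and 3.11 CPM) showed the same separation. Their log2 differences were 1.95 and 1.73, on a scale whose pseudocount of 1 understates changes of low genes. Apart from myha, the genes of this paragraph averaged under 1 CPM in uninjured wild type. They were members through the mutants alone, so the rule itself fixed their direction.

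**Figure D2:**
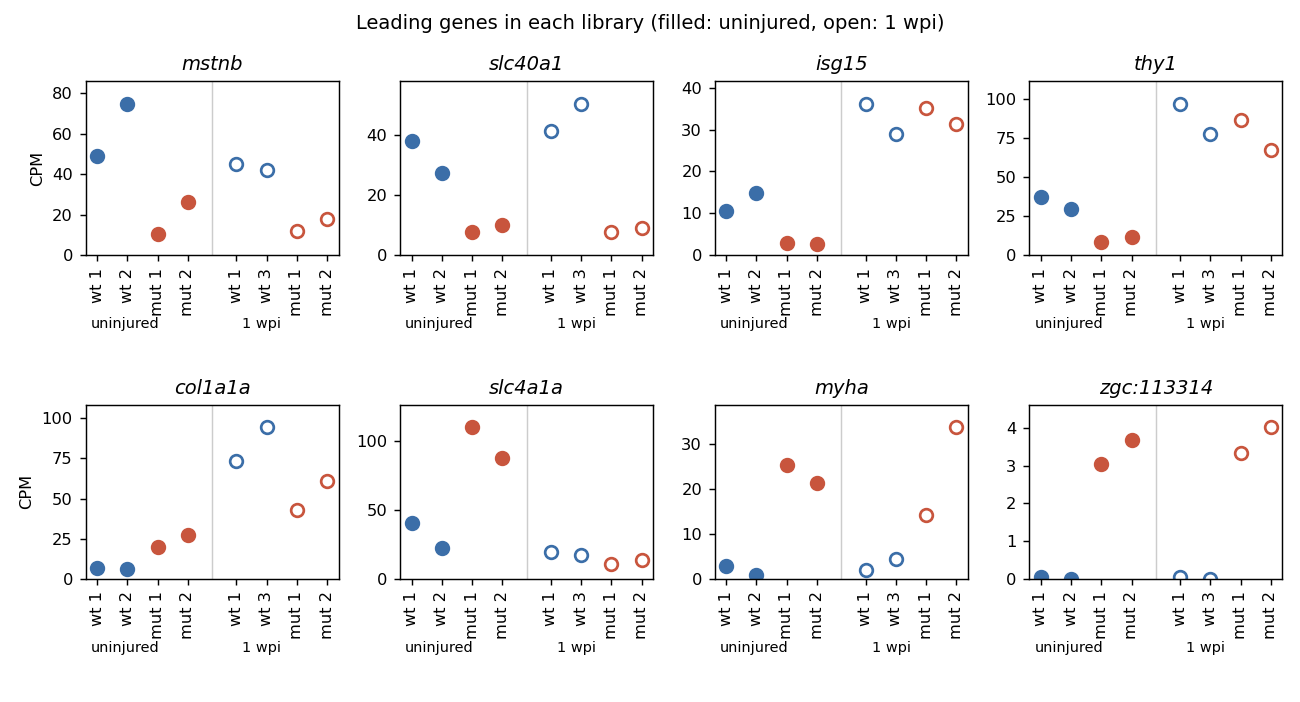
Level in CPM of 8 genes in every library, wild type blue and mutants red, uninjured filled and 1 wpi open, with a separate vertical axis for each gene. The genotypes are apart in both states for mstnb, slc40a1, myha and zgc:113314; isg15 and thy1 are apart in the uninjured libraries and overlap at 1 wpi.

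The interferon response was the list of immune function with the most members on the lower side. Of 27 members, 13 were lower without overlap (48.1%, against 16.3% of all members) and 1 was higher, mxe. That gene averaged under 1 CPM in uninjured wild type, so the membership rule fixed its direction. The list median was -0.50. Besides isg15, the interferon-induced gene ifi45 was at 20.3 and 41.6 against 6.14 and 13.0 CPM (-1.59 ± 0.47, limma adjusted p = 0.645). The protease gene usp18, which removes Isg15 from proteins, was at 5.85 and 3.33 against 1.38 and 1.44 CPM, the immunoproteasome subunit gene psmb9a at 10.6 and 10.2 against 3.50 and 5.83 CPM, and b2m, the light chain of class I major histocompatibility molecules, at 681 and 289 against 218 and 220 CPM. The transcription factor genes stat1a and irf9 were lower by 0.54 and 0.48 on the log2 scale. The members lower without overlap ranged from -1.83 to -0.48. At 1 wpi, 4 of these 13 were again lower without overlap, and the list median was 0.11. Leaving out a library moved the uninjured median between -0.60 and -0.36.

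Microglia and macrophage genes were lower at fewer members. Of 26, 8 were lower without overlap (30.8%) and 1 was higher, marco, a scavenger receptor gene; the median was -0.24. The galectin gene lgals9l1 was at 137 and 86.3 against 49.3 and 52.6 CPM (-1.08 ± 0.28, limma adjusted p = 0.524). Its difference was -0.75 without wild type 1 and -1.41 without wild type 2. The invariant chain genes of class II antigen presentation were at 1253 and 1317 against 706 and 856 CPM for cd74a and at 432 and 222 against 160 and 170 CPM for cd74b. Of the defining markers, apoeb (1026 and 761 against 718 and 992 CPM), csf1ra (8.48 and 16.7 against 16.6 and 20.9 CPM) and mpeg1.1 (0.759 and 1.48 against 0.748 and 0.798 CPM) all overlapped between genotypes. The summed level of the list was 3103 to 4112 CPM in wild type and 2250 to 2717 CPM in the mutants.

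Immediate early genes, which are transcribed within minutes of a stimulus to a cell, were lower or overlapped. Of 29 members, 13 were lower without overlap (44.8%) and 0 higher, with a median of -0.62. The AP-1 gene fosab was at 23.3 and 29.2 CPM in wild type against 8.68 and 11.3 CPM in mutants (-1.31 ± 0.37, limma adjusted p = 0.580). The stress-induced transcription factor gene atf3 was at 24.1 and 17.9 against 8.92 and 10.5 CPM (-1.03 ± 0.29), and junbb at 62.5 and 66.8 against 36.5 and 44.9 CPM. Chosen after its values were seen, the cytokine-signal inhibitor gene socs3a was at 25.5 and 39.3 against 9.88 and 14.9 CPM (DESeq2 adjusted p = 0.0326), and the antiproliferative gene btg2, chosen likewise, at 39.8 and 52.1 against 17.0 and 28.1 CPM (DESeq2 adjusted p = 0.0475). Summed over the list, wild type had 657 and 820 CPM and the mutants 410 and 614 CPM. The median was -0.26 without mutant 1, -0.28 without wild type 2 and -0.03 at 1 wpi, beside 0.20, 0.07 and 0.02 over all members.

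Clock genes gave a mixed picture: 6 of 34 members were lower and 3 higher without overlap, shares near those of all members. The repressor gene cry1b was at 35.5 and 35.7 against 16.5 and 19.8 CPM (-0.94 ± 0.30, limma adjusted p = 0.797). The clock repressor gene ciarta was at 20.0 and 31.1 against 15.3 and 10.3 CPM. The nuclear receptor gene nr1d1, chosen after its values were seen, was at 0.937 and 5.64 against 0.0599 and 0.479 CPM. It averaged under 1 CPM in the uninjured mutants, so the membership rule fixed its direction. The output genes tefb and hlfa were higher by 0.59 and 0.70 on the log2 scale. Of 23 genes of the glucocorticoid response, 4 were lower and 2 higher without overlap, with a median of -0.23. The phosphatase gene dusp1 was at 23.3 and 26.5 against 9.37 and 18.6 CPM (-0.86 ± 0.37, limma adjusted p = 0.982), and the chaperone gene fkbp5 was at 17.8 and 34.3 against 41.2 and 56.2 CPM (0.93 ± 0.33, limma adjusted p = 0.969).

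Iron handling genes were lower at 8 of 26 members without overlap (30.8%) and higher at 4. Beside slc40a1, the haem oxygenase gene hmox1a was at 22.1 and 14.8 against 7.90 and 11.3 CPM (-0.87 ± 0.34, limma adjusted p = 0.982), and the ferritin genes fthl27 (1563 and 1645 against 1030 and 1073 CPM) and fth1b (70.7 and 50.6 against 39.1 and 43.2 CPM) lay lower. The transferrin receptor genes tfr1a (3.03 and 1.69 against 4.10 and 4.47 CPM) and tfr2 (0.0892 and 1.11 against 2.10 and 2.51 CPM) lay higher. Of these, tfr2 averaged under 1 CPM in uninjured wild type, so the membership rule fixed its direction. At 1 wpi, 4 of the 8 were again lower without overlap: slc40a1, hmox1a, fthl27 and fthl28.

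Red cell genes had the highest share on the upper side. Of 18 members, 12 were higher without overlap (66.7%, against 7.16% of all members) and 1 was lower, fech; the median was 0.68, and 0.52 to 0.92 with 1 library left out. The band 3 anion exchanger gene slc4a1a was at 40.3 and 22.5 CPM in wild type against 110 and 87.4 CPM in mutants (1.67 ± 0.35, limma adjusted p = 0.409). The gene of the first enzyme of haem synthesis in red cells, alas2, was at 17.8 and 10.8 against 63.7 and 43.7 CPM (1.85 ± 0.44). Globin transcripts were at 940 and 427 against 1318 and 1439 CPM for hbaa1 and at 3398 and 855 against 5402 and 3610 CPM for hbba1. Spectrin beta (sptb) was at 6.92 and 9.50 against 19.9 and 19.3 CPM. The summed level was 5831 and 1835 CPM in wild type and 8421 and 6222 CPM in the mutants, so wild type 2 had the least. At 1 wpi the sums were 1198 to 1478 CPM in all 4 libraries and the median was -0.31.

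Fibroblast and matrix genes were higher at 11 of 34 members without overlap (32.4%) and lower at 2, ogna and timp2a, with a median of 0.24. The summed level of the list overlapped between genotypes, at 956 and 697 CPM in wild type and 771 and 1061 CPM in the mutants. The chains of type I collagen led: col1a1a was at 6.51 and 5.76 CPM in wild type against 19.7 and 27.5 CPM in mutants (1.77 ± 0.33, limma adjusted p = 0.401, DESeq2 adjusted p = 1.59e-05). Its partner chain col1a2 was at 42.3 and 22.9 against 69.2 and 93.1 CPM (1.34 ± 0.33), and col1a1b at 36.8 and 15.8 against 45.1 and 70.8 CPM (1.19 ± 0.39). Fibronectin (fn1a) and periostin (postnb) were higher by 0.55 and 0.79 on the log2 scale. In these the mutant libraries were both high and mutant 2 was the higher. At 1 wpi the order was turned: col1a1a was at 73.6 and 94.4 CPM in wild type against 43.0 and 61.1 CPM in mutants, and 20 of the 34 list members were lower without overlap in the injured mutants, where 15.4% of all members were. The median of the list was 0.04 without mutant 2 and 0.06 without wild type 2, beside -0.33 and 0.07 over all members.

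**Figure D3:**
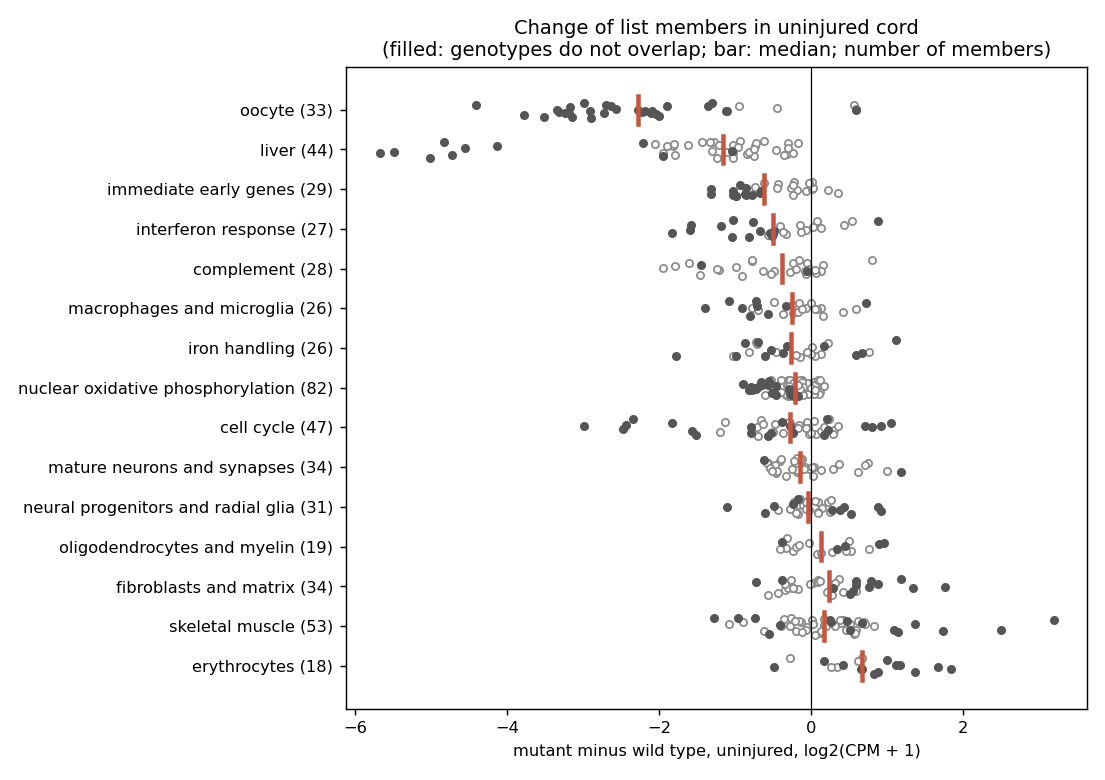
Difference of mutant minus wild type in uninjured cord, log2(CPM + 1), for each member of 15 gene lists (dots), filled where the genotypes do not overlap, with the list median as a red bar and the number of members in brackets. Medians run from -2.27 in the oocyte list to 0.68 in the erythrocyte list, beside -0.07 over all members.

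Genes of skeletal muscle, the tissue in which myostatin is best known, lay on both sides in uninjured cord. Of 53 members, 11 were higher (20.8%) and 5 lower (9.43%) without overlap, and the median was 0.17. It was 0.62 without wild type 1 and -0.37 without wild type 2, beside -0.22 and 0.07 over all members. The actin gene acta1b was at 63.8 and 9.42 against 115 and 185 CPM (2.50 ± 0.71, limma adjusted p = 0.603), and acta1a at 3.79 and 1.23 against 8.47 and 11.6 CPM. The creatine kinase gene ckmb (2754 and 2007 against 1301 and 1519 CPM) was lower. The defining markers actc1b (2706 and 963 against 2517 and 2750 CPM), ckma (1057 and 661 against 710 and 690 CPM) and mylpfa (3127 and 550 against 1276 and 1130 CPM) overlapped. Summed over the list the level was 37299 and 11590 CPM in wild type and 18715 and 19238 CPM in the mutants, so both mutant libraries lay between the wild-type ones. At 1 wpi, 32 of the 53 were higher without overlap in the mutants, where 20.0% of all members were, 2 were lower, and the median was 0.57. The part of this level in single muscle genes was not tested. Reads of near-identical muscle genes may have been shared between copies.

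Egg and yolk transcripts were among the largest differences on the log2 scale and were highest in wild type 1. Of 33 oocyte-list members, 28 were lower without overlap (84.8%) and 1 was higher, piwil1. The zona pellucida gene zp3a.1 was at 304 and 43.0 CPM in wild type against 14.9 and 0.878 CPM in mutants (-4.41 ± 0.98, limma adjusted p = 0.421). The oocyte genes zar1 (43.7 and 11.3 against 4.91 and 1.44 CPM) and buc (28.6 and 17.1 against 6.70 and 4.03 CPM) followed the same order. The yolk precursor gene vtg1, made by the liver of egg-laying females, was at 2295 and 50.6 against 11.3 and 2.63 CPM (-5.68 ± 1.23, limma adjusted p = 0.421). Summed over the oocyte list the level was 2396 and 411 CPM against 195 and 63.5 CPM, and over the liver list 8511 and 349 CPM against 771 and 259 CPM. The liver list had 10 of 44 members lower without overlap, 7 of them vitellogenins; its median was -1.15, and 0.27 without wild type 1. The oocyte median was -2.27, and -1.33 without that library, where the median over all members was -0.22. Of 47 cell cycle genes, 14 were lower (29.8%) and 7 higher (14.9%) without overlap, with a median of -0.28. Among these, ccnb2 was at 50.5 and 16.7 against 8.20 and 2.23 CPM, and aurka at 35.5 and 9.22 against 4.61 and 1.60 CPM, whereas the proliferation gene mki67 was at 5.13 and 4.57 against 6.55 and 11.1 CPM. The epithelial gene epcam followed the same order, at 75.5 and 13.1 against 8.20 and 0.639 CPM, but it was the only 1 of 16 epidermis-list members that was lower without overlap. In that list 4 were higher, among them the keratin gene krt8 (69.9 and 78.1 against 116 and 107 CPM), and the median was 0.43. Of the 83 genes called by DESeq2, 4 were in the oocyte list and 3 in the liver list. Among its 58 lower calls, 16 had a correlation above 0.9 with the summed oocyte level over the 8 libraries. The share of all genes above that correlation is not given here. The part of the oocyte and liver levels in other genes was not tested.

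**Figure D4:**
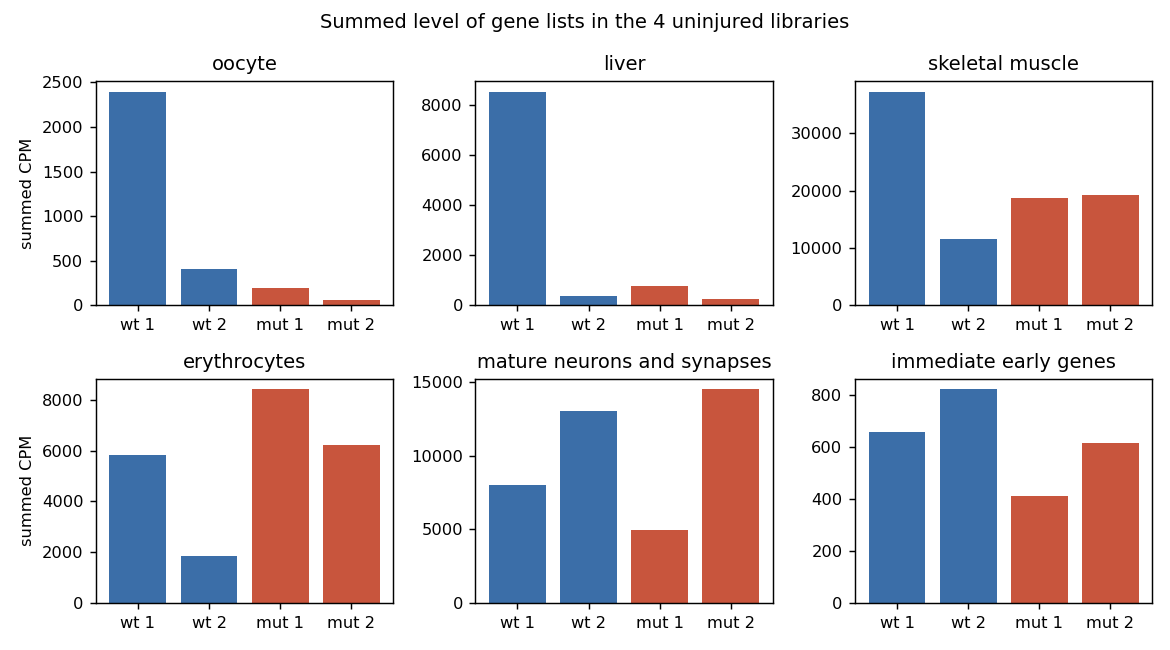
Summed CPM of 6 gene lists in the 4 uninjured libraries, wild type blue and mutants red, with a separate axis from 0 for each list. Wild type 1 is highest for oocyte (2396), liver (8511) and skeletal muscle (37299) genes, wild type 2 lowest for erythrocyte genes (1835), and mutant 1 lowest for neuronal genes (4945).

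Neuronal genes showed differences between replicates rather than between genotypes. Of 34 members of the list of mature neurons and synapses, 1 was higher, mapta, and 1 lower, grin1a, without overlap. The glutamate receptor gene grin1a was at 328 and 300 against 157 and 264 CPM (-0.62 ± 0.29, limma adjusted p = 0.982), and the tau gene mapta at 0.803 and 4.32 against 5.84 and 6.35 CPM. The summed level was 7997 and 13080 CPM in wild type and 4945 and 14519 CPM in the mutants. The list median was -0.14, 0.53 without mutant 1 and -0.86 without mutant 2, the last pair beside 0.20 and -0.33 over all members. The motor neuron gene isl2a was at 16.5 and 16.5 against 3.08 and 12.8 CPM, so its difference of -1.22 came mostly from mutant 1.

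Progenitor and radial glia genes were divided, 6 of 31 higher and 5 lower without overlap, with a median of -0.04 that was 0.05 with TMM scaling. Nestin (nes), the intermediate filament of neural progenitors, was at 15.7 and 27.0 CPM in wild type against 33.9 and 47.3 CPM in mutants (0.92 ± 0.32, limma adjusted p = 0.969, DESeq2 adjusted p = 0.0385). The radial glia gene fabp7a was at 1506 and 1597 against 1805 and 1967 CPM, and cyp19a1b, the aromatase of radial glia, at 12.3 and 5.31 against 17.7 and 14.2 CPM. The ciliogenesis gene foxj1a was at 50.8 and 40.6 against 29.4 and 29.6 CPM and its paralogue foxj1b at 10.6 and 5.10 against 1.98 and 4.15 CPM. The glial markers gfap (4758 and 2455 against 4329 and 3333 CPM) and slc1a2b (377 and 642 against 462 and 765 CPM) overlapped. After injury nes was at 115 to 141 CPM in all 4 libraries.

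Myelin genes were higher at 4 of 19 members without overlap and lower at 1, olig1. The fatty acid 2-hydroxylase gene fa2h, which makes myelin lipids, was at 192 and 230 CPM in wild type against 512 and 329 CPM in mutants (0.96 ± 0.28, limma adjusted p = 0.645), and zwi at 1702 and 1830 against 3989 and 2714 CPM (0.90 ± 0.29). Myelin basic protein transcripts (mbpa) took 7.87% and 8.08% of the reads in wild type and 12.4% and 8.18% in the mutants. In all 3 genes mutant 1 was the highest library, the one that also had the largest mitochondrial share. The 13 mitochondrially coded genes overlapped between genotypes, whereas 22 of 82 nuclear genes of oxidative phosphorylation were lower without overlap (26.8%) and 0 higher. Of these, ndufv3 of complex I was at 74.1 and 82.0 against 40.1 and 48.2 CPM (-0.81 ± 0.28, limma adjusted p = 0.960) and cox7b of complex IV at 1256 and 972 against 713 and 574 CPM. The median of these 82 genes was -0.21, and -0.04 without wild type 1, where the median over all members was -0.22.

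Signalling genes differed at single members, none of them called by limma. In the Wnt list 11 of 44 were higher without overlap (25.0%) and 2 lower, dkk3b and gsk3ba. The secreted Wnt inhibitor gene wif1 was at 0.357 and 0.741 CPM in wild type against 3.05 and 3.23 CPM in mutants (1.43 ± 0.40, limma adjusted p = 0.554, DESeq2 adjusted p = 0.0373), and axin1, a scaffold of the complex that degrades beta-catenin, at 39.5 and 74.8 against 99.3 and 95.2 CPM. The Wnt median was 0.12, -0.12 without mutant 2 and -0.03 without wild type 1, the last pair beside -0.33 and -0.22 over all members. In the list of BMP and TGF-beta signalling, 5 of 33 were higher and 6 lower: id2b, a target of BMP signals, was at 131 and 104 against 51.0 and 57.1 CPM (-1.10 ± 0.28, limma adjusted p = 0.470), and the ligand gene tgfb2 at 0.134 and 0.617 against 2.07 and 2.23 CPM. Both wif1 and tgfb2 averaged under 1 CPM in uninjured wild type, so the membership rule fixed their direction. The Hedgehog ligand gene shha was at 2.19 and 3.21 against 0.479 and 1.76 CPM. Differences in the FGF, Notch and Hox lists were as mixed, with medians of 0.00, 0.13 and -0.15.

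Genes picked by the smallest adjusted p in the authors' deposited table had larger errors here. The GABA transaminase gene abat was at 329 and 206 against 705 and 528 CPM (1.23 ± 0.30, limma adjusted p = 0.427). The potassium channel tetramerisation domain gene kctd3 was at 84.6 and 287 against 437 and 346 CPM (1.31 ± 0.44), and paqr6 at 56.7 and 108 against 280 and 136 CPM (1.30 ± 0.38). In kctd3 and paqr6 the wild-type libraries lay farther apart than wild type 2 and mutant 2. Among the falls with very small adjusted p in that table were the yolk genes vtg1, vtg4 and vtg5, besides zpax4 and epcam. Each of these was highest in wild type 1. For vtg5 the authors' standard error was 0.22, against 1.34 in limma. The authors' deposited table gives mstnb a log2 fold change of -1.79 with a standard error of 0.13, against a moderated error of 0.42 in limma. The limma error pools the replicate spread of all 4 groups and was also 0.42 at 1 wpi, so it does not measure the uninjured spread alone.

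The same genotypes were compared at 1 wpi on other libraries, although the model shares its error estimate between both states. There limma called 50 of 19114 genes higher (0.262%) and 1 lower (0.00523%), the lower one being slc40a1 at 41.2 and 50.3 CPM in wild type and 7.67 and 9.03 CPM in the mutants (-2.32 ± 0.34, limma adjusted p = 0.0164). Both zgc:113314 (2.19 ± 0.38, limma adjusted p = 0.0411) and si:dkey-18p12.4 (3.08 ± 0.45, limma adjusted p = 0.0169) were called higher there, next to uninjured differences of 2.09 and 2.89. For these 3 the uninjured direction was the direction at 1 wpi. Others of the 50 were egg genes that had been lower in the uninjured mutants. Among them were zp3 (6.69 at 1 wpi, limma adjusted p = 0.0151, against -3.78 uninjured) and zp3a.1 (6.79, limma adjusted p = 0.0164, against -4.41). Over all members, 288 were higher without overlap in both states (1.59%) and 540 lower (2.98%). In single states the shares higher and lower were 7.16% and 16.3% without injury, and 20.0% and 15.4% at 1 wpi. Whether the states share more genes than these shares alone would give was not tested. By contrast isg15 (36.2 and 28.9 against 35.2 and 31.3 CPM), thy1 (96.9 and 77.5 against 86.4 and 67.0 CPM) and fosab (11.0 and 19.9 against 14.5 and 14.8 CPM) overlapped at 1 wpi.

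Whether the genotype difference itself changed with injury was tested as an interaction, the difference at 1 wpi minus that in uninjured cord. In limma 107 genes were called higher (0.560%) and 1 lower (0.00523%). The lower one was col1a1a, at -2.46 with a limma adjusted p of 0.0374: higher in the mutants without injury and lower in them after it. Neither of those differences was called by limma on its own. The interactions of col1a2 (-2.28, limma adjusted p = 0.0579), slc4a1a (-2.24, 0.0903) and isg15 (1.87, 0.253) missed the threshold. Of the 108, 101 followed the summed oocyte level over the 8 libraries with a correlation above 0.9. That is a description resting on the libraries rich in egg transcripts, wild type 1 uninjured and mutant 1 at 1 wpi. The 108 were called on the same 8 libraries, and 21 of them are oocyte-list members and so part of the sum. The share of all fitted genes above 0.9 is not given here. With TMM scaling 0 genes passed, at a smallest adjusted p of 0.0525, although the interactions were of similar size (-2.61 for col1a1a and 10.95 for zp3a.1, against -2.46 and 11.20). With edgeR 0 passed as well, and with DESeq2 222 did; without mutant 2 in limma 0 passed.

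**Figure D5:**
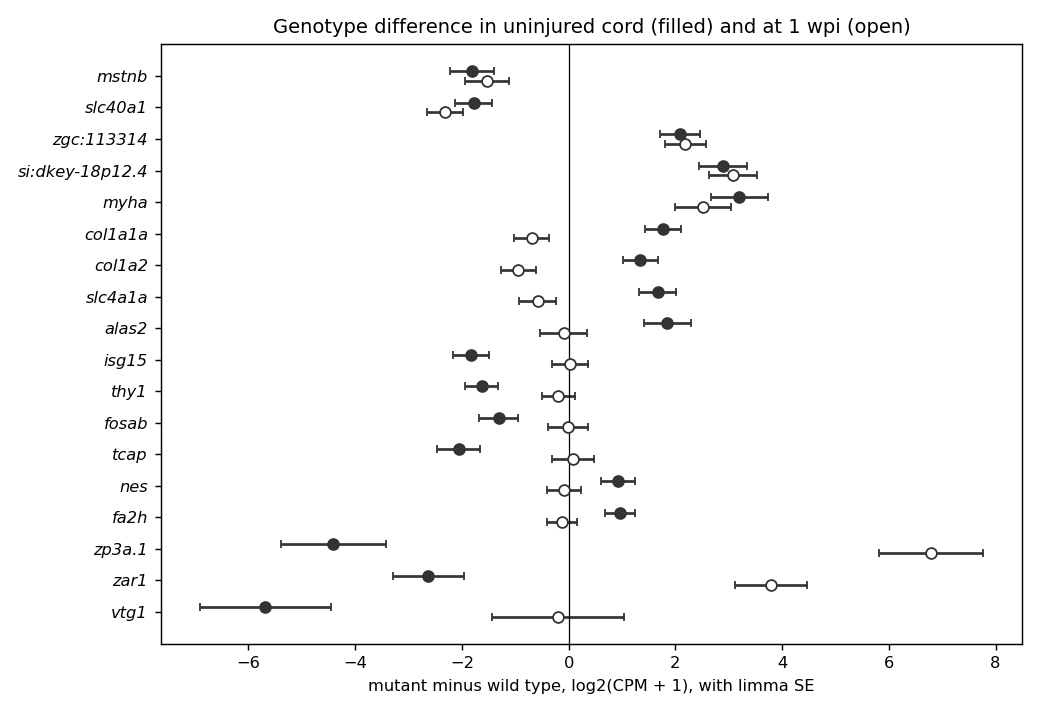
Mutant minus wild type on the log2(CPM + 1) scale, with limma SE as bars, in uninjured cord (filled) and at 1 wpi (open) for 18 genes. Both points lie on the same side of 0 for mstnb, slc40a1, zgc:113314, si:dkey-18p12.4 and myha, and on opposite sides for col1a1a, col1a2 and zp3a.1.

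Genes that lie beside mstnb were looked at because an allele kept by crossing carries its neighbours with it. In RefSeq gene order (assembly GRCz12tu, used for order only), 54 of the 100 nearest genes, 50 on each side, were members. The rest fell below the 1 CPM mean or had no entry matched by symbol or synonym. In limma 0 of the 54 members were called, while DESeq2 called slc40a1. An unadjusted limma p under 0.05 was reached by 9 of the 54, and by 4.46% of all fitted genes. Without overlap 3 of the 54 were higher and 14 lower, where 7.16% and 16.3% of all members were. In both injury states 2 of the 54 were higher and 8 lower without overlap, where 1.59% and 2.98% of all members were. The gene slc40a1 was among the lower ones. The members chosen here after their values were seen were tfpia, a coagulation inhibitor gene, at 2.54 and 2.14 against 0.778 and 0.718 CPM, asnsd1 at 26.5 and 21.1 against 8.80 and 17.5 CPM, and cyp27a1.2 at 0.982 and 0.699 against 3.86 and 3.03 CPM. The paralogue cyp27a1.4, chosen likewise, went the other way, at 6.69 and 5.10 against 1.74 and 3.55 CPM. For tfpia, under 1 CPM on average in the mutants, and cyp27a1.2, under 1 CPM in wild type, the membership rule fixed the direction. At 1 wpi cyp27a1.4 was at 4.68 and 4.72 against 2.88 and 2.07 CPM. The neighbour stat1b was at 2.90 and 9.87 against 0.269 and 2.75 CPM without injury and at 4.08 and 3.27 against 6.80 and 6.61 CPM at 1 wpi. The median over the 54 was -0.10. Effects of the mutation and of linked sequence cannot be told apart for these genes.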

How the data were processed

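Zebrafish spinal cord RNA-seq comprised 8 libraries in 4 groups of 2, grouped from the sample titles; the column of the injured wild type numbered 3, a number in no title, was placed by its group name. TruSeq libraries were read as 50 bp pairs, per the labels' protocols. Bowtie2, Cufflinks and Cuffdiff are named, without versions, in the submitters' processing notes; for the genome build, annotation, counting program and strand setting, not given in the sources used here, no statement is made, so near-identical copies and overlapping or antisense genes are uncertain.

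Among 4 deposited files, 2 were used, and their CPM agreed to a relative difference of 1.13e-08; 16 symbols turned into dates were restored. CPM deposited by the authors were whole multiples of 1 read, within 0.01 reads, in 100% of cases, so reads per gene were recovered. Depth was 20082743 to 33410514 reads. The authors' tables also hold, per the file headers, baseMean (a mean signal), log2 fold changes and their errors, a test score (stat), and both raw and adjusted p-values.

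One limma 3.58.1 model (R 4.3.3, trended prior variance) of 4 group means was fitted to log2(CPM + 1) of all 8 libraries, with 4 residual degrees of freedom, over 19114 genes averaging 1 CPM or more in any group. Genes were called at a Benjamini-Hochberg adjusted p under 0.05. On recovered counts, edgeR 4.0.16 and DESeq2 1.42.0 were alternatives; others changed scaling, pseudocount, filter, weights, libraries and replicate block. The script was tested on simulated data with the same spread for all genes and groups. That test does not cover the unequal replicate spread of the uninjured and injured libraries.

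Named genes were mstnb, those with the 8 largest positive and negative moderated t, the 5 largest changes each way above 10 CPM, the 2 smallest p in each of 34 lists, the authors' 5 leading genes each way, the 5 largest interactions each way and defining cell type markers; every other gene named, among them further list members, was chosen after its values were seen. Members, lists and tests were chosen with earlier results of these data known. One gene is not reported here.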

Additional observations from a re-analysis of the deposited data

Results flagged for a closer look

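The genotype difference differed between uninjured cord and 1 wpi by the interaction test of limma, at an adjusted p under 0.05, for 108 genes. Among the genes named here, the collagen gene col1a1a was the one that moved downward. Its difference was 1.77 without injury and -0.69 at 1 wpi, neither called by limma on its own. The interaction was -2.46 (limma adjusted p = 0.0374). It passed in 9 of 16 alternative settings, with adjusted p of 1.38e-06 to 0.302.

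The others were higher in the uninjured wild-type libraries and higher in the injured mutants, most of them in libraries rich in oocyte transcripts. Among the zona pellucida and egg genes the interaction was 11.20 for zp3a.1, 10.47 for zp3, 9.43 for zp3.2, 8.75 for zp3a.2, 6.12 for zp3b, 8.78 for zpax4, 6.42 for zar1 and 3.87 for buc. For the cyclin gene ccnb2 it was 5.15. The unnamed entries gave 10.80 for zgc:171776, 9.44 for si:dkey-241l7.2, 8.99 for si:dkey-241l7.5, 6.60 for si:dkey-229d11.5, 5.90 for zgc:173856 and 5.80 for si:ch211-146l10.8. Limma adjusted p-values of these 15 were 0.00477 to 0.0333, and with TMM scaling or edgeR none of the 16 passed. The summed oocyte level was 2396 and 411 CPM in uninjured wild type, 195 and 63.5 CPM in uninjured mutants, 38.8 and 44.5 CPM in injured wild type and 2877 and 836 CPM in injured mutants. Its part in the interactions was not tested. Without mutant 2 none of the 16 passed, at adjusted p of 0.154 or more.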

How the results depend on the processing

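The count of 0 genes called in uninjured cord remained 0 with TMM, with CPM rescaled without 5 lists, with pseudocounts of 0.5 and 5, under 3 other filters, with library weights and with edgeR. It was 64 with the 4 uninjured libraries alone (3 higher, 61 lower), 114 with the replicate block (14 higher, 100 lower) and 83 with DESeq2. Leaving out 1 library gave 0 to 859: 859 without wild type 2, 2 without wild type 1 (hbba1 and pvalb2) and 0 without either mutant. Without the libraries richest in oocyte transcripts, an alternative chosen after seeing the data, it was 4 (acta1b, CR318588.1, myha and pvalb2).

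The count of 108 interactions was 0 with TMM (smallest adjusted p 0.0525), 0 with edgeR, 47 with a pseudocount of 5, 63 without a filter, 166 with the replicate block and 222 with DESeq2. Leaving out 1 library gave 0 to 366: 0 without mutant 2, 33 without mutant 1, 115 without wild type 1 and 366 without wild type 2.

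The difference of mstnb kept its direction; with 1 library left out it was -2.45 to -1.16. It passed the threshold with DESeq2 (-1.76) and with the replicate block (-1.81). Same-numbered libraries deviated together with a correlation of 0.299, but the labels do not say that a number marks a shared litter or day, and there are 2 pairs. All 87 other genes whose difference was tracked kept their direction in every alternative, which follows in part from how they were picked. Of 510 alternative list medians, 26 moved by more than the spread between replicates. The causes were not tested. One read was worth 0.0299 to 0.0498 CPM, which limits low values.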
